A study of Homo sapiens with 9 samples.

Results

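Huh-7 is a human hepatocellular carcinoma cell line, and the libraries described here are the 3 of 9 in the series that came from control tumours. Per the labels, the cells were placed under the skin of the flanks of immunodeficient NOD/SCID mice, and adenovirus was given into tumours of about 100 mm3 every 4 days over 8 days. The control tumours received Ad-GFP, a virus that carries green fluorescent protein, and the 6 other libraries of the series, from tumours given Ad-HNF4A or Ad-K458R, were not used. The genotype label of all 3 is WT, and their titles number them as replicates 1, 2 and 3. The labels do not say how old the mice were, nor whether the tumours grew in separate animals, so the spread between libraries may be technical in part. All tumours came from 1 cell line. NOD/SCID mice lack T and B cells but keep myeloid cells, vessels and connective tissue, and the labels do not say what was done with reads from mouse cells. No untreated tumour, cultured cell or normal liver was among the samples, so the levels below are a description of these tumours with no test.

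Hepatocytes make most plasma proteins, detoxify ammonia and foreign compounds, make glucose and bile acids, and carry much of the body's lipid traffic. These tasks are switched on by a network of transcription factors that includes the HNF4, FOXA and CEBP families. The fetal liver expresses alpha-fetoprotein and several growth and RNA-binding proteins that are shut down after birth and often return in liver cancer, where they are called oncofetal. Cancer-testis genes are normally limited to germ cells, and lineage markers of gut, nerve, muscle or blood are normally absent from hepatocytes.

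The 3 libraries held 23171796, 18529618 and 20852925 counts, so that 1 count corresponded to 0.0438, 0.0534 and 0.0478 CPM (the count relative to the scaled library total). A gene was called expressed at 1 CPM or more in each of the 3 libraries, silent at 3 counts or fewer summed over them, and low in between. No count in any library allows a level of up to 0.0480 CPM, by counting error alone. Of 50868 genes in the table, 13924 (27.4%) were expressed, 8087 (15.9%) low and 28857 (56.7%) silent, 23677 of them without a count. Of the 19691 protein-coding genes, 61.7% were expressed, 14.3% low and 24.1% silent. The mitochondrial genome, with MT-CO1 as the highest of all genes in CPM and per length, supplied 7.24, 6.52 and 6.46% of counts in replicates 1, 2 and 3. Since these are bulk samples, fewer cells of a type and less RNA per cell cannot be told apart.

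The gene lists covered 830 genes. Of 288 genes in 10 lists of hepatocyte functions, 215 were expressed, 53 low and 20 silent, and their counts made up 4.07 ± 0.0355% of a library (SD, n = 3). Of 73 oncofetal, progenitor and cancer-testis genes, 35 were expressed, 10 low and 28 silent (1.93 ± 0.0654% of counts). Of 294 markers of other lineages, 66 were expressed, 68 low and 160 silent (0.230 ± 0.00339% of counts). The shares of expressed genes were thus 74.7, 47.9 and 22.4%, beside 61.7% of protein-coding genes. The lists were chosen with earlier results of these data known, so these shares describe the lists and test nothing. The median deposited FPKM, which also divides by gene length, was 2.49 in the hepatocyte lists, 0.409 in the oncofetal lists and 0.00620 in the other-lineage lists, and 0.997 over protein-coding genes. The oncofetal figures pool 2 unlike lists. Oncofetal and progenitor genes had a median of 11.7 FPKM with 77.5% expressed, and cancer-testis genes a median of 0 FPKM with 12.1% expressed.

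**Figure D1:**
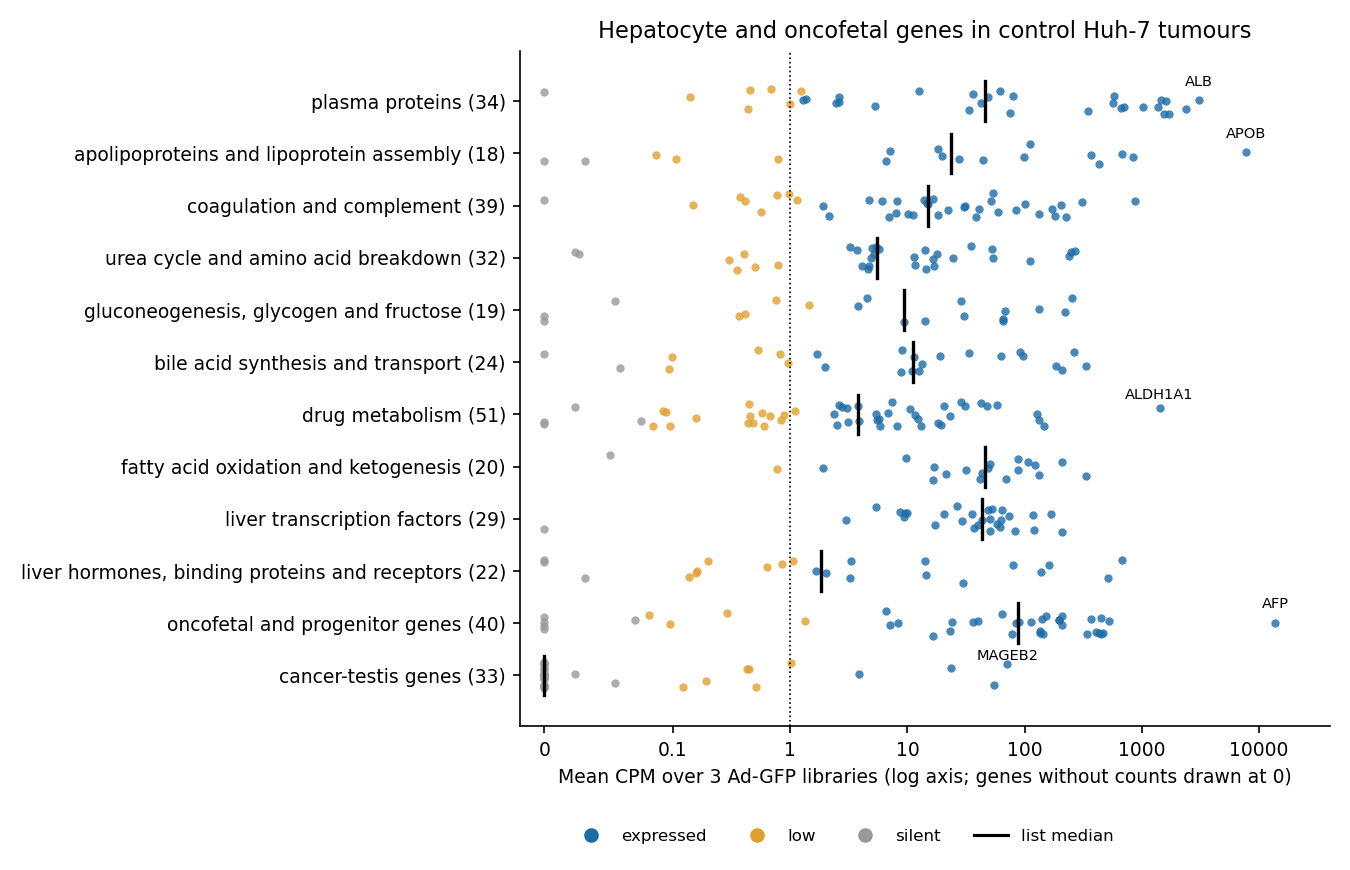
Mean CPM (log axis) of each member of the 10 hepatocyte and 2 oncofetal lists over the 3 Ad-GFP libraries, with 1 point per gene coloured by level and a bar at each list's median; the number of members is in parentheses. The liver transcription factors cluster between 3.01 and 206 CPM except NR1I3 at 0, whereas most cancer-testis genes lie at 0.

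Alpha-fetoprotein was the highest per length of the listed secreted proteins. AFP (chromosome 4, 73431138 to 73456174, ENSG00000081051), the albumin relative of the fetal liver, stood at 13178, 13390.0 and 14346 CPM in replicates 1, 2 and 3. Per length it was the third gene outside the mitochondrial genome, after EEF1A1P5 and FTL. ALB (chromosome 4, 73397114 to 73421412, ENSG00000163631), which encodes serum albumin, stood at 3063, 3461 and 2639.7 CPM. AFP was steady and ALB was highest in replicate 2 and lowest in replicate 3, with no overlap between the genes. Per length, the deposited FPKM of AFP was 3154 ± 162 FPKM and that of ALB 396 ± 55.4 FPKM, a ratio of 7.96. With the summed exon lengths of GENCODE 29 the ratio was 4.63. AFM, which encodes the third member of the family on the same stretch of chromosome 4, stood at 1.31, 1.44 and 1.34 CPM.

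The sequences just upstream of the start sites of AFP and ALB, neighbours with high levels, are shown with those of CRP and G6PC (named G6PC1 in RefSeq), 2 liver genes without a count. Each run holds the 140 bases before the start in the RefSeq table for GRCh38.p14, 5′ to 3′ on the gene's strand. Capitals mark a TATAAA box that lies on the gene's strand and starts 45 to 16 bases before the start site. These are chr4:73436081-73436220 (plus strand) for AFP, chr4:73404147-73404286 (plus) for ALB, chr1:159714590-159714729 (minus) for CRP and chr17:42900659-42900798 (plus) for G6PC1.
AFP: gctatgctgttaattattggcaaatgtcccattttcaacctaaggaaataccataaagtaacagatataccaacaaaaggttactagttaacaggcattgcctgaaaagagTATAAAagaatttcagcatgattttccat
ALB: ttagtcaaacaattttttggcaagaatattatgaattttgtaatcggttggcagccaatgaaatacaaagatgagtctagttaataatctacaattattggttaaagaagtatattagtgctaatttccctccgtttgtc
CRP: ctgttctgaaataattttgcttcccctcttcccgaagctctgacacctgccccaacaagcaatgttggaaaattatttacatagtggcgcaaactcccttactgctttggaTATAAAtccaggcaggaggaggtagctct
G6PC1: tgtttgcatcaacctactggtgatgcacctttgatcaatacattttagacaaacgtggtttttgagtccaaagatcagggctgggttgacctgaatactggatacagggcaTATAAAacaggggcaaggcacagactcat
TATAAA began 29 bases before the start in AFP, CRP and G6PC1, and was not in that window of ALB. Of 27305 promoters of the same length in the table, 2.63% held TATAAA in that window. The letters CAAAGTCCA, a core of the HNF4 site, were on either strand in 0.293% of promoters and in none of these. TATAAA was thus found at the expressed AFP and at the silent CRP and G6PC1. These are letters in a window and not measured sites.

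Of 34 plasma protein genes, 27 were expressed, 6 low and 1 silent. Per length, AMBP, the precursor of alpha-1-microglobulin and bikunin, was highest at 791 ± 9.54 FPKM, followed by ALB and by VTN, which encodes vitronectin, at 324 ± 7.07 FPKM. With exon lengths AMBP and ALB again led, but FGB (536 FPKM) and RBP4 (482 FPKM), the carrier of retinol, stood above VTN (419 FPKM). In CPM, AMBP stood at 2394, 2370.3 and 2333 CPM and VTN at 1049.6, 981 and 1019 CPM, close together in all libraries. The fibrinogen chains FGA, FGB and FGG reached 256 ± 3.48 FPKM, 298 ± 6.95 FPKM and 80.7 ± 4.99 FPKM, so the gamma chain stood below the other chains per length. TF, the iron carrier transferrin, stood at 1579, 1601 and 1647 CPM, and SERPINA1, the elastase inhibitor alpha-1-antitrypsin, at 1801, 1664 and 1615 CPM. Acute-phase proteins, made by the liver in inflammation, spanned the whole range. CRP, which encodes C-reactive protein, had no count and SAA1, serum amyloid A, had 0.141 ± 0.132 CPM, while HP, haptoglobin, stood at 12.1, 12.3 and 13.5 CPM. ORM1 and ORM2, near-identical copies of orosomucoid whose reads may be split, had 74.4 ± 3.74 CPM and 42.7 ± 1.49 CPM. HAMP, which encodes the iron hormone hepcidin, was low at 1.71, 1.6 and 0.382 CPM, and FETUB, a fetuin, at 0.438 ± 0.0921 CPM. Of the inter-alpha-trypsin inhibitor heavy chains, ITIH2 stood at 572 ± 14.8 CPM, and ITIH1, ITIH3 and ITIH4 at 0.987 ± 0.0728 CPM, 0.458 ± 0.341 CPM and 0.684 ± 0.355 CPM.

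Of 18 genes of lipoproteins and their assembly, 13 were expressed, 3 low and 2 silent. APOB, the backbone of the particles that the liver secretes, stood at 7638, 7588 and 7962 CPM, and MTTP, which loads lipid onto it, at 372, 358 and 373 CPM. Both were even across the libraries. Per length, APOB (453 ± 13.6 FPKM) and APOA1 (445 ± 17.6 FPKM), the main protein of high-density lipoprotein, overlapped, and APOE (174 ± 12.2 FPKM) and APOA2 (143 ± 10.1 FPKM) followed by deposited FPKM. With exon lengths the order was APOA1 (585 FPKM), APOB (521 FPKM), APOA2 (455 FPKM) and APOE (306 FPKM). Together, the plasma protein and apolipoprotein lists took 2.77 ± 0.0374% of counts, close to the 2.88% of the genes of cytosolic ribosomal proteins. The ribosomal share leaves out reads counted to processed copies, so it may be understated. The copy RPL23AP42 stood at 835 ± 26 CPM where RPL23A stood at 124 ± 6.99 CPM. At the low end were APOF without a count, APOC4 with 1 count and CETP, the cholesteryl ester transfer protein, with 0.0712 ± 0.123 CPM.

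Blood clotting and complement had 31 of 39 genes expressed, 7 low and 1 silent. C3, the central complement component, stood at 942, 816 and 880.1 CPM, and C5 at 308 ± 12.4 CPM. F2, which encodes prothrombin, stood at 215, 187 and 205 CPM and F5, its activation cofactor, at 196, 175 and 172 CPM. F9, the clotting factor encoded on chromosome X, had no count. Among terminal complement genes, C8A was expressed at 13.8 ± 2.07 CPM while C6, C8G and C9 were low at 1.15 ± 0.302 CPM, 0.569 ± 0.353 CPM and 0.768 ± 0.245 CPM. C4A and C4B are near-identical copies, and their 0.412 ± 0.268 CPM and 0.147 ± 0.0605 CPM may be split or understated. MASP1, a protease of the lectin pathway, was uneven at 193, 99.6 and 105 CPM, highest in replicate 1.

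Liver transcription factors were the hepatocyte list with the largest share expressed, 28 of 29. CEBPA, which drives differentiation of hepatocytes, stood at 200.2, 203 and 215 CPM and was the highest per length at 78.4 ± 3.51 FPKM. HNF4A, the nuclear receptor whose forms the other tumours received, stood at 152, 167 and 181 CPM. FOXA1, FOXA2 and FOXA3, which open liver chromatin, stood at 73.3 ± 2.92 CPM, 50.7 ± 6.44 CPM and 29.2 ± 1.91 CPM. The coefficient of variation of these 5 factors was at most 12.7%, so no library lay far from the others. ONECUT2 stood at 119.8 ± 4.19 CPM and its relative ONECUT1 at 10 ± 0.919 CPM, and the receptor for bile acids, NR1H4, at 26.3 ± 0.711 CPM. PROX1, a factor of early liver development, was uneven at 31.9, 91.4 and 49.2 CPM, highest in replicate 2. NR1I3, the drug-sensing receptor CAR, was the silent member, without a count, while the other drug-sensing receptor, NR1I2 (PXR), stood at 6.17, 4.75 and 5.35 CPM.

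In the urea cycle and amino acid list, 25 of 32 genes were expressed, 5 low and 2 silent. The urea cycle enzymes differed widely. ASL, argininosuccinate lyase, stood at 269.9, 262 and 273 CPM, CPS1, the entry enzyme, at 47.7, 54.9 and 58.1 CPM, and ASS1, which precedes ASL, at 55.7, 49.3 and 52 CPM. ARG1, which releases urea, stood at 4.51, 5.71 and 5.4 CPM, and OTC, which makes citrulline, at 0.394, 0.587 and 0.239 CPM, below 1 CPM in all libraries. Per length the 5 enzymes ran from 0.212 ± 0.0926 FPKM for OTC and 1.26 ± 0.167 FPKM for ARG1 to 45.1 ± 0.863 FPKM for ASL. In tyrosine breakdown, TAT and HPD, the early enzymes, stood at 4.09 ± 0.309 CPM and 4.71 ± 0.654 CPM, and HGD, which follows them, at 249 ± 12.7 CPM. SDS and UROC1, of serine and histidine breakdown, had 1 count each.

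Glucose and glycogen genes were expressed for 12 of 19, low for 4 and silent for 3 (63.2% expressed, beside 61.7% of protein-coding genes). Among the silent genes were PCK1, the cytosolic enzyme that commits carbon to glucose, with 2 counts, and G6PC, which releases free glucose, without a count. PCK2, which catalyses the same step as PCK1, was expressed at 5.9 ± 0.0707 FPKM. PC, pyruvate carboxylase, stood at 249.9, 251 and 261 CPM and the glycogen-degrading PYGL at 227, 224 and 215 CPM, steady across the libraries. GYS2, the liver form of glycogen synthase, was low at 0.438, 0.32 and 0.335 CPM.

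Bile acid genes were expressed for 17 of 24, low for 5 and silent for 2. CYP7A1, the rate-limiting enzyme of bile acid synthesis from cholesterol, had 2 counts, and CYP8B1, which directs the product to cholic acid, had none. CYP27A1, of the alternative route, stood at 65.9, 57.9 and 65 CPM. FGFR4 and its coreceptor KLB, which receive the gut signal FGF19, stood at 336 ± 17.7 CPM and 209 ± 5.7 CPM, and FGF19 itself was expressed in the tumours at 23.5, 22.5 and 25.6 CPM. Among uptake and export genes, SLC10A1, the sodium-dependent bile acid importer, had 6 counts in all, and the canalicular pumps ABCB11 and ABCC2 stood at 2.28, 1.33 and 2.34 CPM and 273, 252 and 260.1 CPM.

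Drug metabolism had 32 of 51 genes expressed, 15 low and 4 silent, a share expressed of 62.7% beside 61.7% of protein-coding genes. ALDH1A1, a retinal dehydrogenase, stood at 1441, 1430.0 and 1374 CPM. Several cytochromes of the adult liver were low or silent. CYP2A6 and CYP4A11 had no count, CYP3A4 had 4, CYP1A2 1, and CYP2E1 stood at 0.525, 0.587 and 0.669 CPM. CYP1A1, which responds to aryl hydrocarbons, stood at 49.2, 60 and 63.5 CPM, and CYP2B6 at 19.3 ± 1.39 CPM. The alcohol dehydrogenases ADH1A, ADH1B and ADH1C stood at 0.157 ± 0.20 CPM, 0.0534 ± 0.0925 CPM and 0.082 ± 0.0336 CPM, and ADH6 at 13.1 ± 0.415 CPM. The genes of the UGT1A locus share exons, and GSTA1 with GSTA2, CYP2C members and SULT1A1 have close copies, so their counts are uncertain.

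Fatty acid oxidation had 18 of 20 genes expressed, 1 low and 1 silent, with FABP1, the liver fatty acid binding protein, at 354, 337 and 315 CPM. FGF21, a fasting hormone of the liver, had 2 counts. Among hormones, binding proteins and receptors, 12 of 22 were expressed, 7 low and 3 silent (54.5% expressed, beside 61.7% of protein-coding genes). AGT, which encodes angiotensinogen, stood at 704, 666 and 668 CPM. ASGR1 and ASGR2, the subunits of the asialoglycoprotein receptor, stood at 30 ± 2.94 CPM and 161 ± 3.27 CPM. IGF1, the growth hormone effector, was low at 0.175, 0.16 and 0.143 CPM, although its upstream receptor GHR stood at 14.1 ± 0.519 CPM. LECT2 and the glucagon receptor GCGR had no count.

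Several liver proteins, most of them metabolic enzymes, have an adult liver form and a counterpart of fetal liver or of wider use. A counterpart need not be absent from adult liver. PCK2, set here against PCK1, is also a member of the hepatocyte list of glucose and glycogen genes. Of 16 such pairs, arranged after the values were seen and including ALB with AFP and IGF1 with IGF2, the counterpart was higher per length without overlap of libraries in 13 and the adult form in 3, by deposited FPKM. With GENCODE exon lengths the figures were 12 and 2, and 2 pairs overlapped (PYGL with PYGB and CPT1A with CPT1B). Of the 12 enzyme pairs among them, the counterpart was higher in 10 and the adult form in 2 by deposited FPKM, and in 9 and 1 with exon lengths. CYP3A7 over CYP3A4 is counted among the 10, although both genes were low, at 0.126 ± 0.0662 FPKM and 0.0156 ± 0.0191 FPKM. For pyruvate formation, PKM stood at 58.4 ± 3.69 FPKM and the liver form PKLR at 1.32 ± 0.0374 FPKM. For glycogen synthesis, GYS1 stood at 4.89 ± 0.351 FPKM and the liver form GYS2 at 0.116 ± 0.0189 FPKM. The S-adenosylmethionine synthase MAT2A stood at 57.3 ± 2.1 FPKM and its adult form MAT1A at 0.828 ± 0.124 FPKM, a ratio of 69.3. Among the adult forms that exceeded their counterparts were FBP1 (1.59 ± 0.245 FPKM, against 0 for FBP2) and FABP1 (71.7 ± 3.79 FPKM, against 22.9 ± 1.18 FPKM for FABP5).

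Of 40 oncofetal and progenitor genes, 31 were expressed, 4 low and 5 silent. After AFP, the highest per length by deposited FPKM were GPC3, a cell-surface proteoglycan used as a liver cancer marker (119 ± 3.85 FPKM), KRT19, a keratin of biliary and progenitor cells (106 ± 8.12 FPKM), and SPINK1, a trypsin inhibitor (102 ± 1.21 FPKM), of which KRT19 and SPINK1 overlapped. With exon lengths the order was KRT19 (193 FPKM), GPC3 (191 FPKM), CD24 (151 FPKM) and SPINK1 (134 FPKM). In CPM, GPC3 stood at 520.5, 532 and 504 CPM and KRT19 at 453, 415 and 488 CPM, steady across libraries. The fetal RNA-binding proteins that act against let-7 or bind growth factor messages were among them. LIN28B, which blocks maturation of let-7, stood at 430.1, 473 and 452 CPM, whereas its paralogue LIN28A had 3 counts. IGF2BP1 stood at 399, 402 and 407 CPM, and IGF2BP2 and IGF2BP3 at 114 ± 5.59 CPM and 136 ± 5.42 CPM. TRIM71 and HMGA2, both targets of let-7, stood at 198 ± 8.22 CPM and 207 ± 17.1 CPM. Surface markers of progenitor cells were present as well, with PROM1 (CD133) at 343 ± 13.4 CPM, CD24 at 469 ± 23.6 CPM and EPCAM at 89.5 ± 3.28 CPM. The imprinted genes H19, MEG3 and PEG3 and the neural adhesion gene NCAM1 were without a count, and the imprinted DLK1 was low at 1.49, 0.961 and 1.58 CPM.

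IGF2, the imprinted fetal growth factor next to H19, was the least even of the list members over 100 CPM. It stood at 944, 143 and 199 CPM, highest in replicate 1 by a wide margin, with a coefficient of variation of 104%. The readthrough gene INS-IGF2 had no count and the antisense gene IGF2-AS stood at 1.18, 1.39 and 1.0 CPM. IGF2R, which clears the factor, stood at 726, 733 and 748 CPM, so replicate 1 was not apart there. GOLM1, a Golgi protein used as a serum marker of liver cancer, was lower in replicate 1, at 179, 456 and 468 CPM. The mitochondrial ribosomal RNA MT-RNR1 was also highest in replicate 1, at 1917, 717 and 559 CPM, and its part in the IGF2 value was not tested.

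Of 33 cancer-testis genes, 4 were expressed, 6 low and 23 silent, 21 of them without a count. MAGEB2, of the X-linked MAGE family, stood at 69.3, 74 and 70.2 CPM, BRDT, a testis bromodomain protein, at 57.1, 54.7 and 52.6 CPM, PRAME at 24.2, 23.3 and 22.7 CPM and CT83 at 4.24, 4.32 and 3.06 CPM. MAGEB2, BRDT and PRAME were steady across the libraries. None of the 6 MAGEA genes listed had a count, and the same was so for the GAGE, XAGE and CTAG genes. These families hold near-identical copies, among which reads may be lost or split, so a 0 there is uncertain.

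Of 15 intestinal genes, 9 were expressed, 2 low and 4 silent, a share expressed of 60.0% beside 61.7% of protein-coding genes. VIL1, which encodes the microvillus protein villin, stood at 585, 542 and 634 CPM, CDH17, a cadherin of gut epithelium, at 224, 213 and 216 CPM, and CDX2, the factor that specifies intestine, at 51.8, 48.4 and 53.1 CPM. ISX, another gut transcription factor, stood at 42.8, 40.6 and 38.2 CPM. The libraries were close to one another for each. The brush-border enzymes SI (sucrase-isomaltase), ALPI (alkaline phosphatase) and LCT (lactase) stood at 21, 28.4 and 28.3 CPM, 16.6, 12 and 12.6 CPM and 4.81, 5.98 and 5.07 CPM. By contrast MUC2, the goblet cell mucin, had no count and CDX1, the relative of CDX2, had 2. Some of these genes, VIL1 among them, are also expressed in other epithelia.

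Other epithelial lineages had markers at every level. Of the bile duct list 5 of 11 were expressed, led by BICC1, an RNA-binding protein (66.7, 65.3 and 69 CPM), while KRT7, a keratin of ducts, was low at 0.263, 0.0534 and 0.0956 CPM. In stomach, 2 of 10 were expressed (TFF2 and PGC), in pancreas 2 of 19 (PDX1 and CEL), in kidney 2 of 15 (LRP2 and CUBN), in lung 2 of 10 (FOXJ1 and AGER). LRP2 (megalin) and CUBN (cubilin), receptors that act together in protein uptake, stood at 55.3, 60.3 and 54.5 CPM and 4.16, 4.38 and 5.26 CPM. INS, UMOD, SFTPC and GKN1, defining products of islet, kidney tubule, lung and stomach, had no count. PDX1, a pancreas and duodenum factor, stood at 5.91, 7.1 and 9.56 CPM. Of 18 skin genes 6 were expressed, 7 low and 5 silent, and SFN, an epithelial 14-3-3 protein, stood at 53.8, 45.9 and 46.2 CPM. Of 19 genes of breast, prostate, thyroid and gonad 5 were expressed, 7 low and 7 silent.

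Markers of cells that surround a tumour were also of interest. The host that could supply such cells is a mouse, whereas the counts are of human genes. Host cells would count here only through reads assigned to human genes, so these levels do not measure how many were present. Of 16 endothelial genes, 2 were expressed, 4 low and 10 silent. PECAM1, an adhesion protein of vessels, stood at 39.3, 37.8 and 41.1 CPM, but KDR and ERG had no count and CDH5 and TEK had 1 each. Of 18 macrophage genes 5 were expressed, 6 low and 7 silent. LYZ, lysozyme, stood at 307, 325 and 296 CPM, whereas CD163, C1QA, C1QB and TYROBP had no count. The other expressed members were CD68, TIMD4, CD14 and CTSS, with means of 2.61, 1.2, 0.584 and 0.498 FPKM. Of 18 fibroblast and stellate cell genes 9 were expressed, 5 low and 4 silent. RELN, a matrix glycoprotein, stood at 88.4, 84.7 and 94.6 CPM, COL1A2, a collagen I chain, at 42.2, 42.3 and 38.9 CPM and its partner COL1A1 at 2.67, 2.99 and 2.87 CPM. LUM (6.22 ± 0.513 FPKM), TAGLN (4.53 ± 1.33 FPKM), PDGFRB, PDGFRA, COL3A1 and RGS5 were the other expressed members of this list. POSTN and FAP, markers of activated fibroblasts, had no count, and DCN, decorin, was low at 0.219, 0.427 and 0.239 CPM. The summed level of the whole list was 236, 225 and 259 CPM for fibroblasts, 43.6, 40.1 and 44.1 CPM for endothelium, and 330.3, 347 and 318 CPM for macrophages.

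Among genes of blood cells, 87.5% of the red cell list and 55% of the lymphocyte and neutrophil list were silent. Over protein-coding genes the silent share was 24.1%, and over all genes 56.7%. Of 16 red cell genes none were expressed, 2 low and 14 silent. Of 20 lymphocyte and neutrophil genes 2 were expressed, 7 low and 11 silent, with S100A9, a calcium-binding protein, at 5.08, 6.19 and 6.55 CPM. Nerve and muscle lists each held some expressed members. Of 20 neuronal genes 6 were expressed and 13 silent. TUBB3, a beta-tubulin, stood at 70.6, 90.3 and 50.9 CPM, while RBFOX3, DCX and STMN2, of neurons, had no count. The other expressed neuronal members were SNAP25, SYT1, MAP2, GAD1 and ENO2, with means of 1.03, 0.892, 0.834, 0.540 and 0.322 FPKM. Of 21 muscle genes 2 were expressed and 15 silent. TTN, which encodes the sarcomere protein titin, stood at 82.3, 69.6 and 78.4 CPM, and NPPB, a natriuretic peptide, at 36.9, 31.7 and 45.8 CPM, whereas MYH7, MYOD1 and TNNI3 had no count. Of 12 glial genes 4 were expressed and 6 silent, with SLC1A3, a glutamate transporter, at 61.9, 61.9 and 59.3 CPM and SOX10, a factor of glia, without a count. ALDH1L1, AQP4 and MBP were the other expressed glial members, with means of 0.381, 0.304 and 0.179 FPKM. Of 9 adipocyte genes 3 were expressed and 5 silent, with the nuclear receptor PPARG at 52.7, 50.9 and 47.5 CPM and ADIPOQ, adiponectin, without a count. Per length, the expressed adipocyte members CIDEC, PPARG and UCP1 had means of 11.2, 7.23 and 2.67 FPKM. No placental and no germ cell or pluripotency gene was expressed, with POU5F1, NANOG and SOX2 at 0.

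**Figure D2:**
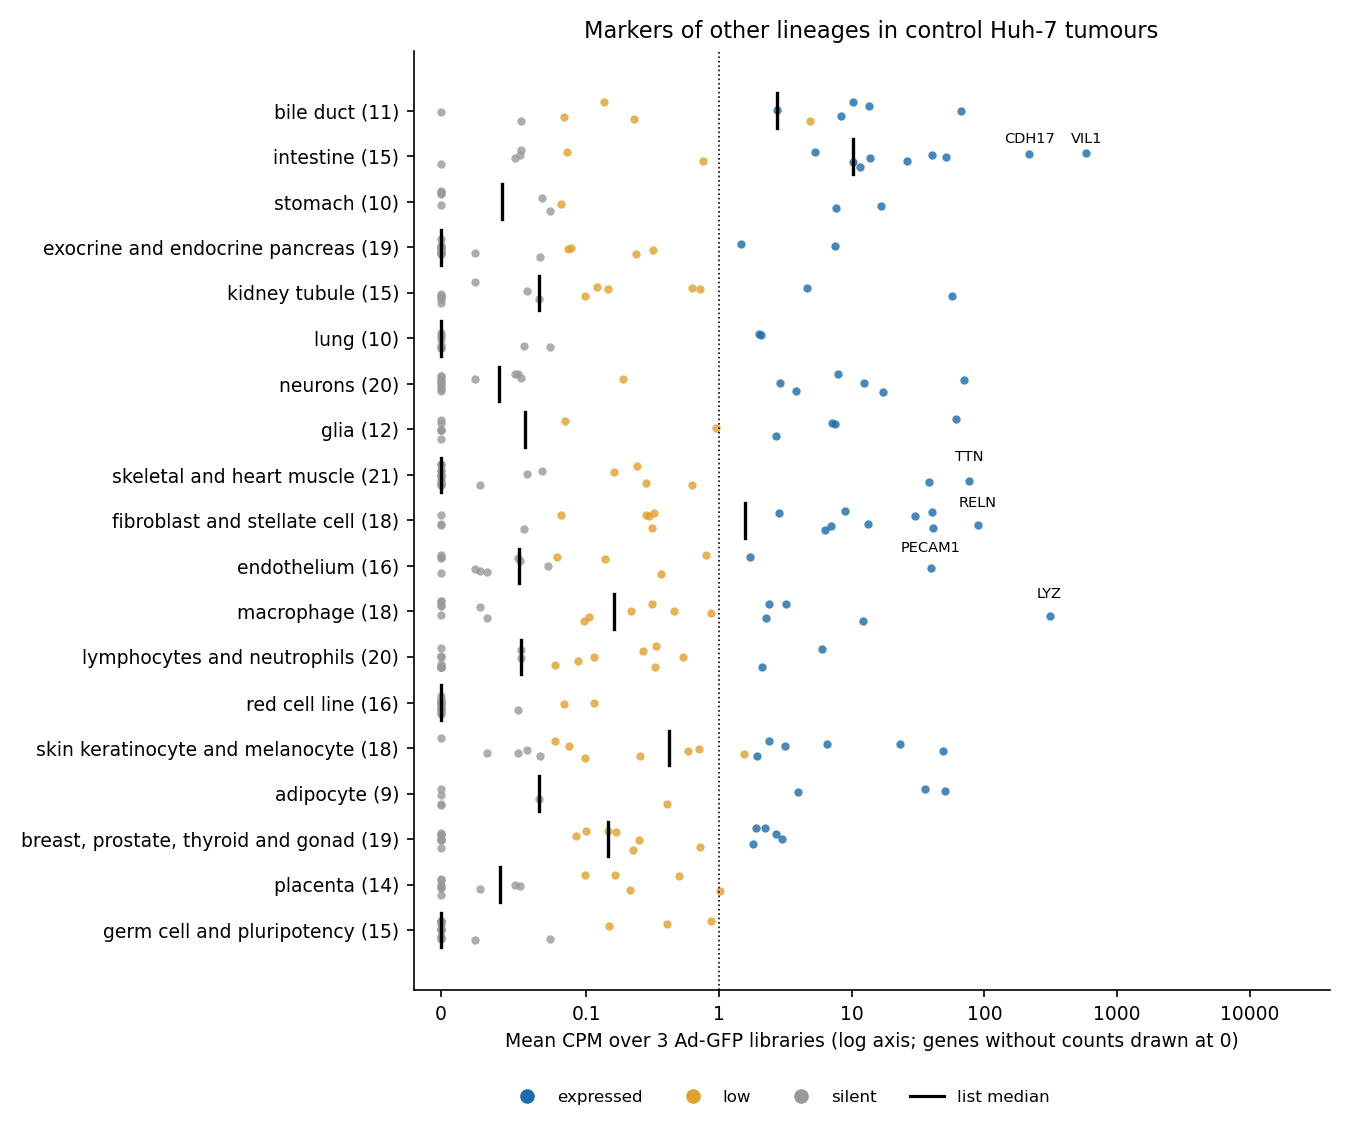
Mean CPM (log axis) of each member of the 19 other-lineage lists over the 3 Ad-GFP libraries, 1 point per gene coloured by level with a bar at each list's median; the number of members is in parentheses. VIL1, LYZ and CDH17 are the highest points, at 587, 309 and 218 CPM, and the red cell, placental and germ cell lists hold no expressed gene.

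HOX genes, which set position along the body axis and stand in 4 clusters, were read by cluster. Of HOXA (chromosome 7, 27100354 to 27200106), 10 genes are reported, 8 of them expressed and 2 low, with a summed level of 49.4 CPM. HOXC (chromosome 12, 53938765 to 54056030) had 7 of 9 expressed, 1 low and 1 silent, 78.2 CPM in all. HOXB (chromosome 17, 48528526 to 48729178) had 0 of 10 expressed and 9 silent, 0.122 CPM in all, and HOXD (chromosome 2, 176092891 to 176190907) had 1 of 9 expressed and 7 silent, 2.24 CPM. The expressed members were thus in HOXA and HOXC, apart from HOXD1. Per length, HOXC10 was highest of the genes reported at 9.84 ± 1.11 FPKM, and it stood at 52.4, 45.2 and 41.2 CPM. HOXD1 was the expressed gene of its cluster at 2.41, 1.82 and 1.96 CPM. HOXA3 was uneven at 4.59, 17.9 and 6.69 CPM, highest in replicate 2. In the annotation, HOXA3 spans HOXA4, HOXA5 and HOXA6, and HOXA9 overlaps HOXA10. HOXC4 overlaps both HOXC5 and HOXC6, and HOXC6 also spans HOXC8 and HOXC9. Reads of all these genes may be shared.

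Neighbouring genes of other families were also unequal. Runs of 3 or more members of the hepatocyte, oncofetal and HOX lists, with gaps of up to 200 kb, numbered 24. Of these, 4 held both expressed and silent genes, the HOXC and HOXD clusters, the alcohol dehydrogenases and the run at APOE. On chromosome 19, within 43.8 kb, APOE stood at 669.9 ± 43.8 CPM, APOC1 at 97.8 ± 12.8 CPM, APOC4 had 1 count and APOC2 stood at 6.53 ± 1.16 CPM. On chromosome 11, within 48.6 kb, APOA1 stood at 833 ± 25.8 CPM, APOC3 at 19.6 ± 1.63 CPM, APOA4 at 18.3 ± 2.78 CPM and APOA5 was low at 0.79 ± 0.342 CPM. On chromosome 3, AHSG, which encodes fetuin-A, stood at 347 ± 33.9 CPM beside its relative FETUB at 0.438 ± 0.0921 CPM. Per length, AHSG stood at 87.8 ± 9.62 FPKM and FETUB at 0.0772 ± 0.0171 FPKM, so the order was the same on both scales.

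Of 20 epithelial and mesenchymal genes, 16 were expressed, 1 low and 3 silent. FN1, fibronectin, stood at 10059, 8886 and 9675 CPM, KRT8 and KRT18, the keratins of simple epithelium, at 3362, 3162 and 3458 CPM and 1605, 1474 and 1675 CPM. Both cadherins were expressed, CDH1, of epithelium, at 118, 112 and 157 CPM and CDH2, of liver and mesenchyme, at 179.7, 186 and 193 CPM. VIM, vimentin, stood at 784, 738 and 867 CPM, TWIST1 had 3 counts and SNAI2 was low at 0.108 ± 0.0978 CPM. The annotated KRT8 and KRT18 lie close together on opposite strands, and no strand-keeping step is described in the protocols.

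All 23 proliferation genes and all 18 immediate early and stress genes were expressed, as were the 15 reference genes. HSPA5, a chaperone of the endoplasmic reticulum, stood at 1663, 1704 and 1684 CPM. MKI67 stood at 342, 297 and 166 CPM and AURKA, a mitotic kinase, at 171, 165 and 90.7 CPM, both lowest in replicate 3. TOP2A stood at 442, 452 and 422 CPM and MCM7, of the replication helicase, at 574, 565 and 566 CPM. Of 20 hypoxia and glycolysis genes 17 were expressed, 2 low and 1 silent. CA9, a carbonic anhydrase of hypoxic cells, was the silent one, without a count, while SLC2A1, a glucose transporter, stood at 78.5, 73.4 and 73.7 CPM. The type I interferon list, relevant to cells that have received a virus, had 13 of 23 genes expressed, 5 low and 5 silent. This was a share expressed of 56.5%, near the 61.7% of protein-coding genes. MX2, a dynamin-like antiviral protein, stood at 99.7, 117 and 111 CPM and OAS3 at 104, 109 and 109 CPM, while IFNB1 and IFNL1 had no count and RSAD2, IFI44 and OASL were silent. No tumour without virus was among the samples, so the part of the vector in these levels cannot be told apart.

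The spread between the 3 tumours was small for most genes. The median coefficient of variation was 7.90% over 13924 expressed genes, of which 160 exceeded 50%, and 6.36% over 9775 genes of at least 10 CPM, of which 94 did. The biological coefficient of variation, edgeR's estimate of spread beyond counting, was 0.132. Between 2 libraries, 233 to 262 genes differed by 2-fold or more. Among the 15 most variable genes of at least 10 CPM were 2 list members, IGF2 and IER2. IER2, an immediate early gene, stood at 3.54, 6.41 and 52.4 CPM, highest in replicate 3. CEBPB, a liver and stress factor, was also highest there, at 11.2, 12.5 and 27.8 CPM. B2M, the light chain of class I histocompatibility molecules and a common reference gene, was lowest in replicate 2, at 129, 37.6 and 121 CPM.

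Several of the least even values belonged to RNAs that oligo(dT) capture does not select or to genes that share reads. Besides MT-RNR1, RN7SL2, an RNA of the signal recognition particle, was highest in replicate 1, at 114, 51.5 and 29.1 CPM. SENP3-EIF4A1, which joins 2 neighbouring genes, stood at 75, 109 and 0 CPM. Summed with SENP3 and EIF4A1, the coefficient of variation was 6.33% in place of 90.9%. For FMC1-LUC7L2 it was 4.45% in place of 95.3%, and for PPAN-P2RY11 9.26% in place of 97.9%. These 3 sums were chosen after the values were seen. EEF1A1P5, a processed copy of the elongation factor gene EEF1A1, stood at 9741, 10314 and 9956 CPM where EEF1A1 stood at 2448, 2522 and 2472 CPM, so counts of a gene and its copies cannot be told apart here.

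**Figure D3:**
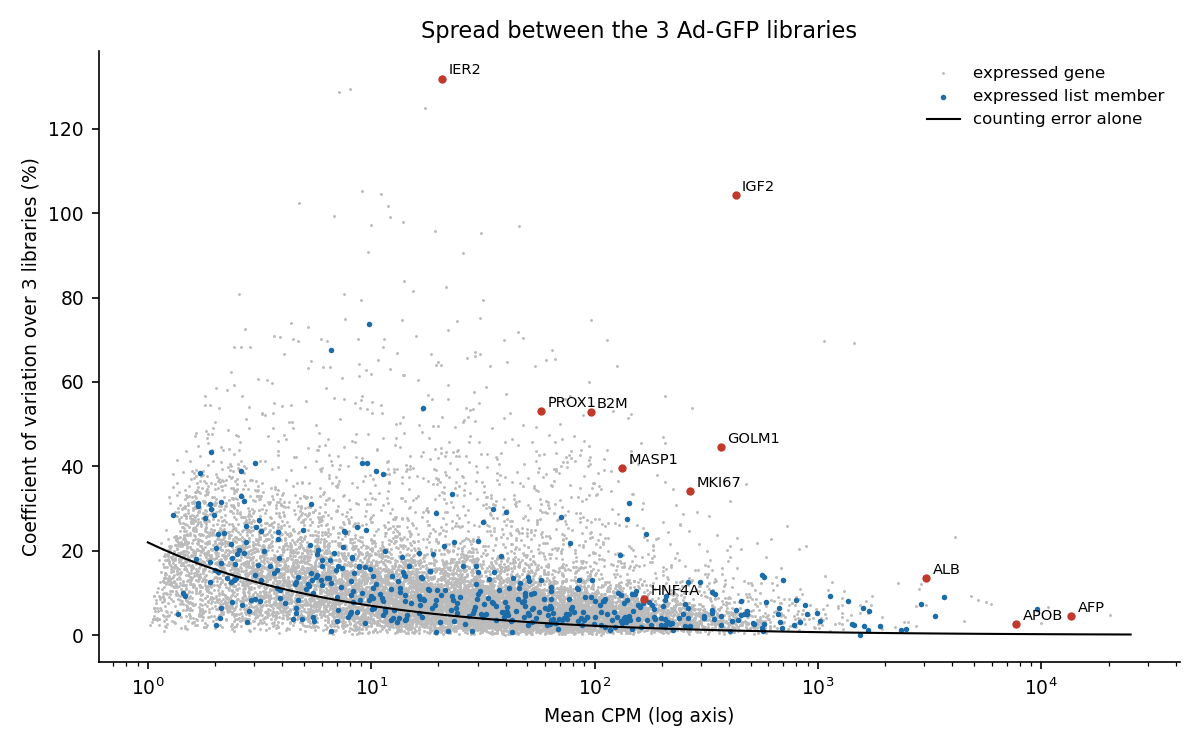
Coefficient of variation over the 3 Ad-GFP libraries against mean CPM (log axis) for each expressed gene (grey) and list member (blue), with a line for counting error alone. The median is 7.90%, and IGF2 stands at 104% and IER2 at 132%.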

How the data were processed

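Per the file headers, the table that the authors deposited gives a raw count and an FPKM value of 50868 human genes with Ensembl identifiers in every library. Per the labels' protocols, messenger RNA was captured with oligo(dT) beads, fragmented and copied with random primers. The submitters' processing notes name Trimmomatic and the mouse build mm10, whereas 98.5% of the identifiers were found in GENCODE 29, 94.9% of them at exactly the same GRCh38 position. Which aligner and counter were used was not given in the sources used.

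Counts of the 3 Ad-GFP libraries were scaled by TMM (edgeR 4.0.16, R 4.3.3) and given as CPM, with mean ± SD over 3 libraries. Groups came from the sample titles. Expressed meant at least 1 CPM in each library, and silent meant at most 3 counts in all. The deposited FPKM was used to set genes side by side, since it divides by a length. That length was within 10% of the summed GENCODE 29 exons for 41.1% of 26920 genes, with a median ratio of 1.21, so exon lengths were an alternative. The biological coefficient of variation came from edgeR's common dispersion. No contrast was made and no p-value was computed. No pair of libraries was alike within counting noise (chi-square per gene 12.2 to 15.2), as a library deposited in duplicate would be. This does not show that the tumours came from separate animals. The floor covers counting error alone, because the reads had no molecular tags.

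Gene lists (39 lists, 830 genes) and members were chosen with earlier results of these data known. Names were drawn from a pool made of key members of the lists and their highest and lowest members by CPM, the 20 genes highest in FPKM, the 10 genes outside the lists highest in CPM and the 15 most variable genes of at least 10 CPM. The text names some of this pool, not all of it. Other named genes, among them IGF2-AS, INS-IGF2, IGF2R, MT-RNR1, RN7SL2 and the partners of readthrough genes, were chosen after their values were seen. A few list members, and the pairs that hold them, were left out of the text and plots by name. Promoter sequences come from RefSeq (GRCh38.p14). The table held an entry for fewer than 80% of list genes, so promoters were not compared between lists. Alternatives were other scalings, thresholds and lengths, and leaving out each library.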

Additional observations from a re-analysis of the deposited data

How the results depend on the processing

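With 3 libraries of 1 cell line, the levels describe these tumours and carry no test. No paired analysis was possible because a single group was described and no contrast was tested. Of the main results, 74 of 79 recomputed values stayed within 1.5 times the main count or within the spread of the libraries. When silent required 0 counts, the silent hepatocyte genes numbered 11 in place of 20. When expressed required a deposited FPKM of 1 in every library, the expressed other-lineage genes numbered 33 in place of 66. The share of counts from plasma proteins and apolipoproteins was 2.97% without mitochondrial genes and 1.89% by FPKM, against 2.77%. The median coefficient of variation was 21.2% without a filter on low counts, against 7.90%. Leaving out each library in turn gave 14066 to 14081 expressed genes, 216 to 218 expressed and 24 to 25 silent hepatocyte genes, 35 to 36 and 29 to 30 oncofetal genes, 66 to 68 and 170 to 172 other-lineage genes, and a biological coefficient of variation of 0.129 to 0.142. With fewer libraries, the rules for expressed and silent can hardly lower these gene counts, so a rise in them was largely set in advance. Of 586 values for single lists, 43 moved, 15 of them with the FPKM threshold and 13 with 0 counts. For these the cause was not tested. The depth sets the floor of 0.0480 CPM over the 3 libraries.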
